A study of Mus musculus with 8 samples.

Results

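The 9 genes described here are Cldn3, Cldn4, Cldn6, Cldn7, Ocln and Tjp1 of the tight junction, the epithelial splicing regulators Esrp1 and Esrp2, and the epithelial transcription factor gene Grhl2. They were chosen by symbol, and all 9 were found among the 38610 symbols of a table of FPKM (fragments per transcript length and per total of mapped fragments) with values in 8 RNA-seq libraries, and all 9 were among the 13188 tested genes, those that reached 1 FPKM in 2 libraries or more. The cells were CJ9 mouse embryonic stem cells (strain 129S4/SvJae), cultured without leukemia inhibitory factor (LIF) until day 4 by the time label. There were 3 libraries of Evx1as KO cells, 3 of cells labelled EVX1 KO and 2 of WT cells. Evx1as is a noncoding RNA of the locus of Evx1, a homeobox gene of the primitive streak, and the series title names CRISPR as the means of knockout. Which bases were deleted, and whether a knockout is 1 clone or several, is not stated in the labels.

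Tight junctions seal the space between epithelial cells near their apical side. Claudins form the strands that close or open the barrier to particular ions, occludin lies in the same strands, and the scaffold protein ZO-1, encoded by Tjp1, ties them to actin. Esrp1 and Esrp2 encode RNA-binding proteins that direct the splicing of many transcripts, Fgfr2 among them, to their epithelial forms. Grhl2 activates junction genes in mouse epithelia, including Cldn4. Cells that pass through the primitive streak lose such junctions, and the zinc finger repressor Snai1 is known to act on claudin and occludin promoters in that step.

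Summed FPKM lay between 531523 and 587798 per library, and 12244 to 12442 genes reached 1 FPKM. The number of reads is unknown, and steps between low values put the relative depth between 0.865 and 1.19 times that of WT replicate 1. Evx1as (listed as 5730457N03Rik) had 0.0549, 0.104 and 0.0485 FPKM in the Evx1as KO libraries, 5.01, 8.81 and 7.39 FPKM in the EVX1 KO libraries and 5.36 and 6.75 FPKM in the WT libraries. Evx1 itself had 2.45, 3.84 and 0.542 FPKM in Evx1as KO, 26.3, 20.8 and 31.7 FPKM in EVX1 KO and 22.0 and 31.2 FPKM in WT, so transcript level does not check the label EVX1 KO. The culture and harvest protocols of EVX1 KO replicates 2 and 3 give day 6, whereas their titles and time labels give day 4. The member calls, the counts over all list genes together and the ratios that rest on these libraries are also given without them. Counts and medians of single lists, overlaps of groups, claudin shares, marker sums, marker calls and correlations are not. Genes of chromosome 14 stood low in Evx1as KO replicates 2 and 3 (median deviation -0.36 and -0.34 on the log2 scale) and genes of chromosome 8, which carries Esrp2, in EVX1 KO replicates 1 and 2, and no member lies on chromosome 14. The labels do not say whether replicates are separate cultures, so the spread behind every p-value may be purely technical. The stem cell marker Pou5f1 was present in every library, at 380.4 to 458 FPKM in Evx1as KO, 302 to 365 FPKM in EVX1 KO and 308 to 328 FPKM in WT.

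Promoter sequences (RefSeq, GRCm38.p6) of 6 of the 9 genes were matched by symbol, and those of Esrp1, Esrp2 and Grhl2 are named only. The 250 bases before the start of Cldn3 (chr5:134985964-134986213, plus strand), Cldn4 (chr5:134946935-134947184, minus strand) and Cldn6 (chr17:23679115-23679364, plus strand) are printed 5′ to 3′ on each gene's own strand. The first pair is shown because these neighbouring genes moved in opposite directions in Evx1as KO, and the last because it was the most abundant of the 9. Capitals mark E2-boxes, CACCTG or its reverse complement CAGGTG, the letters that Snail-family repressors are known to bind.
Cldn3 promoter: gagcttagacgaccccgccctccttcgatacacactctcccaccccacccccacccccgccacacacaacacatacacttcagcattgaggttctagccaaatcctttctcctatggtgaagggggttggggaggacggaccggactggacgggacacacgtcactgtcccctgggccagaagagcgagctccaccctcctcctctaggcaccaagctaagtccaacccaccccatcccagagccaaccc
Cldn4 promoter: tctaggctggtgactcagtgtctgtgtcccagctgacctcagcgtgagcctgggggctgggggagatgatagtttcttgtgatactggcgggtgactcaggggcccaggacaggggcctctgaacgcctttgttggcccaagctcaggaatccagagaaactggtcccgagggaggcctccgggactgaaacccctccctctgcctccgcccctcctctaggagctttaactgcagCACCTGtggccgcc
Cldn6 promoter: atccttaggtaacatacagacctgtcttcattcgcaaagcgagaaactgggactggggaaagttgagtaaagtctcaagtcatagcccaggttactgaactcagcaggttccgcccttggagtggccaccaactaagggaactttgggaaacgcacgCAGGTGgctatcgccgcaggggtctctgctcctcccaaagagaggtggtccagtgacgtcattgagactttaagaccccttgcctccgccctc

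The printed stretch of Cldn3 held no E2-box, that of Cldn4 held 1 at position -14 and that of Cldn6 held 1 at position -93, counted from the start. Over the full window of 250 bases before to 50 bases after a start, an E2-box on either strand was present at 1 or more starts of 5 of the 6 genes, Cldn3 included (position +32), and absent for Tjp1. Cldn7 and Ocln had 2 starts each, so 6 of 8 windows held it, the first of Cldn7 not among them. Of 32851 promoter windows of the same length, 20.2% held an E2-box. The Grainyhead-like letters AACCGGTT, which read the same on both strands, were in none of the 6 genes' windows and in 0.146% of all windows. These matches describe letters and not bound sites.

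Levels first set the 9 genes apart from each other (FPKM, which is per transcript length). Cldn6, a claudin of embryonic epithelia, was the highest, with 347, 353 and 332 FPKM in Evx1as KO, 299, 360.0 and 333 FPKM in EVX1 KO and 435 and 379.6 FPKM in WT. The order Cldn6, Cldn4, Cldn7, Tjp1 held at the top of all 3 groups, with no overlap between neighbours in that order. Ocln was the lowest of the 9 in every group. In Evx1as KO the order went on with Cldn3, Esrp1, Esrp2 and Grhl2, each apart from the next. In EVX1 KO Cldn3 overlapped both Esrp2 above it and Grhl2 below it, and in WT Esrp1 overlapped Esrp2 and Cldn3 overlapped Grhl2. Measured against the 13188 genes tested, mean levels ran from the 45th percentile for Ocln (6.97 FPKM) to the 98th for Cldn6 (355 FPKM).

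The 4 claudins of the set carried nearly all claudin transcript. Of 25 Cldn genes in the table, 6 reached 1 FPKM in each library, the other two being Cldn12 and Cldn25. Cldn3, Cldn4, Cldn6 and Cldn7 together held 95.5% to 96.3% of summed claudin FPKM in Evx1as KO, 95.1% to 95.3% in EVX1 KO and 96.4% to 97.3% in WT. That sum was 634, 652 and 653 FPKM in Evx1as KO, 633, 661 and 673 FPKM in EVX1 KO and 923 and 731 FPKM in WT. Its makeup differed: Cldn3 took 7.42%, 5.50% and 8.85% of it in Evx1as KO, 4.61%, 2.57% and 1.74% in EVX1 KO and 2.27% and 1.57% in WT. The smallest Cldn3 share in Evx1as KO was thus above every share in the other 2 groups.

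**Figure D1:**
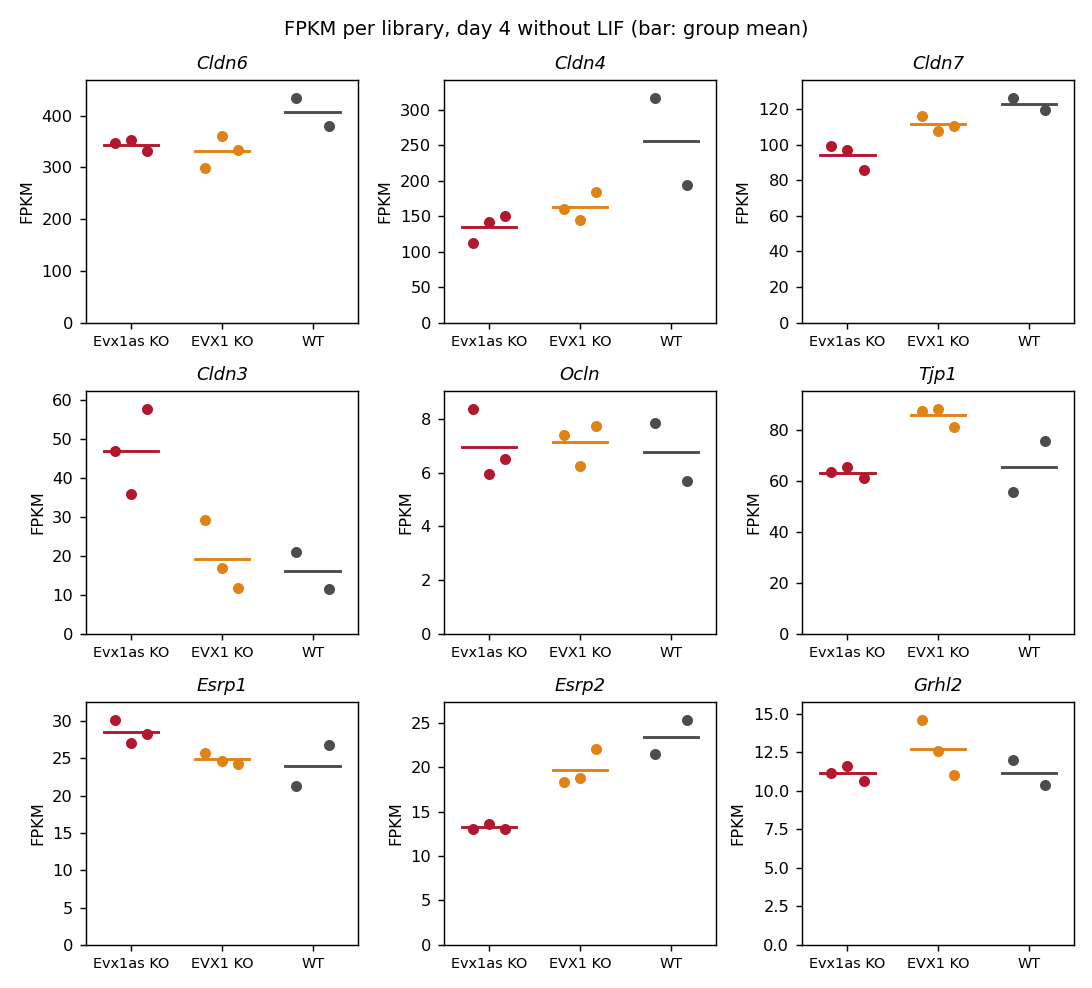
FPKM of the 9 genes in each library of Evx1as KO, EVX1 KO and WT, with points for libraries and bars for group means, on linear axes from 0 that differ between panels. Cldn3 points of Evx1as KO (35.9 to 57.7 FPKM) lie above all others, and Esrp2 points of Evx1as KO (13.0 to 13.5 FPKM) lie below all others.

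The first comparison was Evx1as KO against WT. In Evx1as KO Cldn3 rose, while Cldn4, Cldn7 and Esrp2 fell. Occludin, ZO-1, Esrp1 and Grhl2 transcripts gave no call, nor did the most abundant claudin, Cldn6. Thus 4 of the 9 genes were called (1 up and 3 down) at an adjusted p under 0.05 by limma with Benjamini-Hochberg adjustment, where 24.5% of all 13188 tested genes were called (13.0% up and 11.4% down). The groups did not overlap for 6 of the 9, against 55.6% of all genes. The median log2 fold change of the 9 was -0.04, beside 0.02 over all genes. Fold changes here and below are on the log2(FPKM + 1) scale, which understates changes of low genes, and are given with their standard errors. In bulk RNA, fewer cells of a type and less RNA per cell cannot be told apart.

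Cldn3 (chromosome 5, 135462083 to 135463346, with all positions as deposited) encodes a barrier-forming claudin of simple epithelia. It had 47.0, 35.9 and 57.7 FPKM in Evx1as KO, against 20.9 and 11.4 FPKM in WT. Every Evx1as KO library lay above both WT libraries. The log2 fold change was 1.51 ± 0.36 (limma adjusted p = 0.0177), and the means were 46.9 ± 10.9 FPKM in Evx1as KO (SD, n = 3) and 16.2 ± 6.7 FPKM in WT (SD, n = 2). The call was lost without Evx1as KO replicate 3 (1.35, limma adjusted p = 0.0605) and without WT replicate 2 (1.10, limma adjusted p = 0.138).

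Cldn4 (chromosome 5, 135420992 to 135422804), whose protein has a close relative in that of Cldn3, moved the other way. Its level was 113, 142 and 150.3 FPKM in Evx1as KO, against 317 and 194 FPKM in WT. All 3 Evx1as KO values lay under the lower WT value, and the WT libraries were far apart. The log2 fold change was -0.88 ± 0.21 (limma adjusted p = 0.0158). Without WT replicate 1, the higher of the 2, it was -0.53 (limma adjusted p = 0.106).

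The smaller fall was that of Cldn7 (chromosome 11, 69778280 to 69781388), a claudin also found along the basolateral membrane. Evx1as KO libraries had 99.0, 97.0 and 85.7 FPKM and WT libraries had 126 and 119.6 FPKM. These groups were separate, with little spread inside either. The log2 fold change was -0.39 ± 0.09 (limma adjusted p = 0.0144), with limma adjusted p = 0.0861 without WT replicate 1 and 0.0507 without WT replicate 2. For Cldn6 (chromosome 17, 23816331 to 23819414) the same comparison gave -0.24 ± 0.10 (limma adjusted p = 0.111). Its Evx1as KO libraries were all below its WT libraries, yet the difference missed the threshold. With Evx1as KO replicate 1 as the lone Evx1as KO library, assumed to vary like the other groups, limma adjusted p was 0.107 for Cldn3, 0.0532 for Cldn4 and 0.134 for Cldn7, and with no filter on low values it was 0.0607 for Cldn3 and 0.0530 for Cldn4.

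Ocln (chromosome 13, 101267321 to 101322453), the occludin gene, had 8.38, 5.93 and 6.52 FPKM in Evx1as KO, against 7.83 and 5.70 FPKM in WT. Its groups overlapped, with a log2 fold change of 0.03 ± 0.17 (95% interval -0.35 to 0.42). Tjp1 (chromosome 7, 72441050 to 72516130) had 63.4, 65.3 and 61.2 FPKM in Evx1as KO, against 55.8 and 75.5 FPKM in WT. All 3 Evx1as KO values of Tjp1 fell between the 2 WT values, and the log2 fold change was -0.04 ± 0.12 (95% interval -0.31 to 0.24).

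Esrp2 (chromosome 8, 108655082 to 108660874) gave the firmest call of the 9. It had 13.1, 13.5 and 13.0 FPKM in Evx1as KO, against 21.4 and 25.3 FPKM in WT. The 3 Evx1as KO libraries were close to each other and well below both WT libraries. The log2 fold change was -0.77 ± 0.11 (limma adjusted p = 0.00282), and it stayed between -0.89 and -0.64 with adjusted p up to 0.0393 over 21 alternative fits. Esrp2 overlaps 1810019D21Rik in the table, the strand setting of the counting is not given, and reads in the overlap cannot be told apart. That neighbour had 6.78, 5.11 and 4.89 FPKM in Evx1as KO, against 9.63 and 8.64 FPKM in WT (log2 fold change -0.63 ± 0.21, limma adjusted p = 0.0531). In EVX1 KO the neighbour gave -0.85 ± 0.21 against WT (limma adjusted p = 0.0754) and -0.22 ± 0.18 against Evx1as KO (limma adjusted p = 0.412). Esrp2 gave -0.24 ± 0.11 and 0.54 ± 0.10 there. Both genes lie on chromosome 8, which stood low in EVX1 KO replicates 1 and 2. The part of the overlap in the Esrp2 values was not tested.

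Its paralog Esrp1 (chromosome 4, 11259184 to 11313930) had 30.2, 27.0 and 28.3 FPKM in Evx1as KO, against 21.3 and 26.8 FPKM in WT. The groups were apart by a narrow margin, and the log2 fold change of 0.24 ± 0.11 was not called (limma adjusted p = 0.139). Grhl2 (chromosome 15, 37162790 to 37293323) had 11.2, 11.6 and 10.6 FPKM in Evx1as KO, against 12.0 and 10.4 FPKM in WT. Grhl2 values of the groups overlapped fully, with a log2 fold change of -0.00 ± 0.13 (95% interval -0.29 to 0.29). Loci that overlap Esrp1, Grhl2 and Cldn3 in the table reached at most 0.618, 2.01 and 0.210 FPKM.

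**Figure D2:**
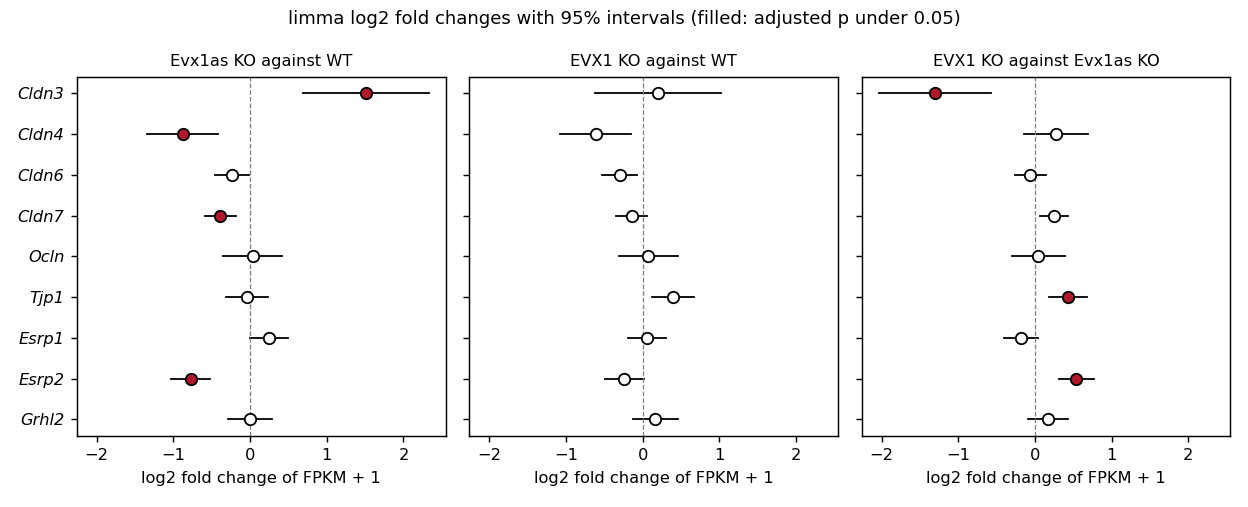
Log2 fold changes of FPKM + 1 for the 9 genes in the 3 comparisons, with points for limma estimates, lines for 95% intervals and filled points for adjusted p under 0.05. Filled points number 4 for Evx1as KO against WT, 0 for EVX1 KO against WT and 3 for EVX1 KO against Evx1as KO.

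In EVX1 KO against WT, a comparison that uses the same 2 WT libraries, none of the 9 genes was called by limma, where 1.24% of all tested genes were (0.69% up and 0.554% down). At an unadjusted p under 0.05 there were 3 of the 9 (Cldn4, Cldn6 and Tjp1) and 2800 of all 13188 genes. Limma with library weights called 2 of the 9 (Cldn4 and Tjp1) and 1148 of all genes. The groups did not overlap for 4 of the 9, against 39.1% of all genes, and the median of the 9 was 0.06, beside 0.02 over all genes.

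Cldn4 had 159, 144 and 184 FPKM in EVX1 KO, against 317 and 194 FPKM in WT. Its EVX1 KO libraries were all under the lower WT library, and the log2 fold change was -0.61 ± 0.21 (limma adjusted p = 0.145). Tjp1 had 87.5, 88.3 and 81.3 FPKM in EVX1 KO, against 55.8 and 75.5 FPKM in WT. Here every EVX1 KO library was above both WT libraries, with a log2 fold change of 0.40 ± 0.12 (limma adjusted p = 0.122). Cldn6 gave -0.30 ± 0.10 (limma adjusted p = 0.143) and Cldn7, at 116, 108 and 110.5 FPKM in EVX1 KO against 126 and 119.6 FPKM in WT, gave -0.14 ± 0.09 (limma adjusted p = 0.392).

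Cldn3 had 29.2, 17.0 and 11.7 FPKM in EVX1 KO, against 20.9 and 11.4 FPKM in WT. These groups overlapped, and the EVX1 KO libraries differed from each other by more than the group means did (log2 fold change 0.20 ± 0.36). Without EVX1 KO replicates 2 and 3 the Cldn3 difference was 0.87 (limma adjusted p = 0.217). The remaining genes also overlapped: Ocln ran from 6.26 to 7.74 FPKM in EVX1 KO (0.08 ± 0.17), Esrp1 from 24.3 to 25.7 FPKM (0.06 ± 0.11) and Grhl2 from 11 to 14.6 FPKM (0.17 ± 0.13). Esrp2 had 18.3, 18.7 and 22.1 FPKM in EVX1 KO, against 21.4 and 25.3 FPKM in WT (-0.24 ± 0.11, limma adjusted p = 0.267). The median deviation over the 505 genes of chromosome 8 was -0.38 and -0.30 (log2) in EVX1 KO replicates 1 and 2 and 0.08 in EVX1 KO replicate 3, beside 0.15 to 0.16 in Evx1as KO and 0.01 to 0.11 in WT. With chromosome medians removed, the Esrp2 difference was 0.02 (limma adjusted p = 0.937). Without EVX1 KO replicates 2 and 3 none of the 9 was called either, where the lone EVX1 KO library was assumed to vary like the other groups.

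Set directly against each other, EVX1 KO and Evx1as KO differed in 3 of the 9 genes. Cldn3 was lower in EVX1 KO, and Esrp2 and Tjp1 were higher in EVX1 KO, where 22.0% of all tested genes were called (10.7% higher and 11.3% lower). The groups did not overlap for 5 of the 9, against 40.8% of all genes, and the median was 0.17, beside -0.00 over all genes. The log2 fold change of Cldn3 was -1.31 ± 0.32 (limma adjusted p = 0.0221), that of Esrp2 was 0.54 ± 0.10 (limma adjusted p = 0.00752) and that of Tjp1 was 0.43 ± 0.11 (limma adjusted p = 0.0232).

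Leaving out replicate 1 or 3 of Evx1as KO, or 2 or 3 of EVX1 KO, ended the Cldn3 call, with limma adjusted p between 0.0501 and 0.0847. That of Tjp1 ended without replicate 1 or 3 of Evx1as KO, or 1 or 2 of EVX1 KO, with limma adjusted p between 0.0525 and 0.0844. Esrp2 was called in all 8 fits that left out 1 library, and its difference was 0.89 (limma adjusted p = 8.94e-04) with chromosome medians removed. With EVX1 KO replicate 1 as the lone EVX1 KO library, the differences were -0.64 for Cldn3, 0.44 for Esrp2 and 0.46 for Tjp1, and none was called (limma adjusted p from 0.0957 to 0.293). None was called with Evx1as KO replicate 1 as the lone Evx1as KO library either (0.101 to 0.191), Tjp1 was not called without EVX1 KO replicates 1 and 2 (0.227), and with no filter on low values the calls of Cldn3 (0.0721) and Tjp1 (0.0536) were lost. Cldn7 was at 0.25 ± 0.08 just outside the threshold (limma adjusted p = 0.0532), and inside it with median-ratio scaling (0.0498), library sums (0.0158) or library weights (0.0217). Cldn4 was at 0.27 ± 0.18 (0.322) and Esrp1 at -0.19 ± 0.10 (0.201). Cldn6 (-0.06 ± 0.09), Ocln (0.04 ± 0.15) and Grhl2 (0.17 ± 0.11) overlapped between the knockouts, as did Cldn4.

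Within a library, the ratio of related genes does not depend on library scaling. Each ratio is formed from the same values as the calls above, so it adds no separate evidence for them. The Cldn3 to Cldn4 ratio was 0.418, 0.252 and 0.384 in Evx1as KO, 0.183, 0.118 and 0.0635 in EVX1 KO and 0.0661 and 0.0591 in WT. Evx1as KO libraries were thus above all others, and EVX1 KO libraries ran down to the WT level. The geometric mean was 5.50 times as high in Evx1as KO as in WT (exact two-sided permutation p = 0.1, the smallest that 3 against 2 libraries allow). It was 1.78 times as high in EVX1 KO as in WT (exact permutation p = 0.3) and 0.324 times as high in EVX1 KO as in Evx1as KO (exact permutation p = 0.1, again the smallest possible). With EVX1 KO replicate 1 alone, these folds were 2.94 against WT and 0.534 against Evx1as KO, with no test.

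The Esrp1 to Esrp2 ratio was 2.31, 2.00 and 2.18 in Evx1as KO, 1.40, 1.32 and 1.10 in EVX1 KO and 0.992 and 1.06 in WT. The 3 groups did not overlap. Esrp2 lies on chromosome 8, and the ratio was not corrected for the level of that chromosome. Its median deviation was -0.38, -0.30 and 0.08 (log2) in EVX1 KO replicates 1, 2 and 3. With chromosome medians removed, the Esrp2 difference of EVX1 KO from WT went from -0.24 to 0.02. The part of chromosome 8 in the ratio was not tested. Geometric means stood 2.10 times as high in Evx1as KO as in WT (exact permutation p = 0.1), 1.24 times as high in EVX1 KO as in WT (exact permutation p = 0.2) and 0.588 times as high in EVX1 KO as in Evx1as KO (exact permutation p = 0.1). With EVX1 KO replicate 1 alone, the EVX1 KO folds were 1.37 against WT and 0.651 against Evx1as KO. At these group sizes no permutation p can pass 0.05. The splice forms that the ESRP proteins select were not analysed here, since the values are per gene.

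**Figure D3:**
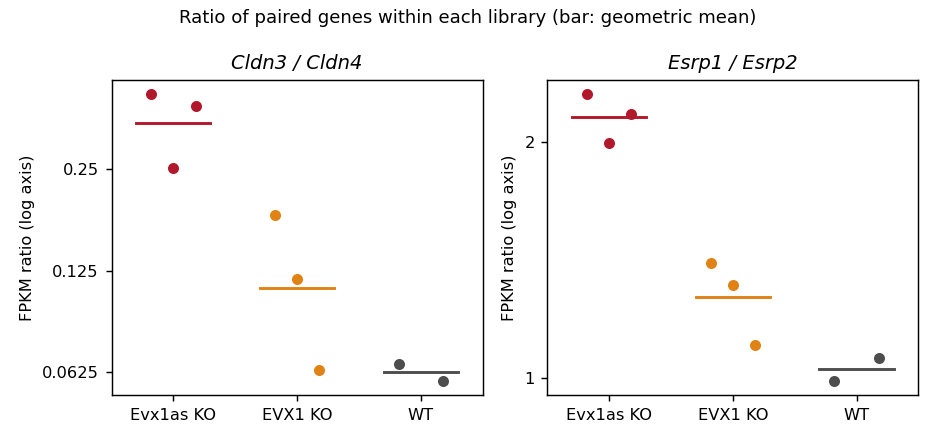
FPKM ratios of Cldn3 to Cldn4 and of Esrp1 to Esrp2 in each library, on log axes, with points for libraries and bars for geometric means. Both ratios are highest in Evx1as KO (0.252 to 0.418 and 2.00 to 2.31) and lowest at the WT end (down to 0.0591 and 0.992).

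Cldn4 and Cldn3 lie 39.3 kb apart, with no other symbol between them in the table. Because they moved in opposite directions, the genes within 200 kb on either side were examined, a window chosen after the values were seen. Of 12 other tested genes there, 5 rose in Evx1as KO against WT and Bcl7b fell, beside 13.0% up and 11.4% down over all tested genes, and in EVX1 KO against WT none was called by limma (Mlxipl, Tbl2 and Wbscr27 had an unadjusted p under 0.05). Wbscr27, on the far side of Cldn4, had 10.7, 7.95 and 12.4 FPKM in Evx1as KO, against 3.46 and 1.71 FPKM in WT (log2 fold change 1.69 ± 0.28, limma adjusted p = 0.00434). Mlxipl, which encodes the carbohydrate response factor ChREBP, had 1.90, 2.04 and 2.26 FPKM in Evx1as KO, against 0.262 and 0.378 FPKM in WT (1.22 ± 0.15). Cldn4 was thus called lower between Wbscr27 and Cldn3, both called higher.

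The other risers were Abhd11 (0.74 ± 0.17, lost without WT replicate 2 at limma adjusted p = 0.0989), Dnajc30 (0.57 ± 0.15) and Vps37d (0.74 ± 0.23). Dnajc30 lost its call without either WT library and without Evx1as KO replicate 1 or 3 (limma adjusted p up to 0.137). Vps37d did so without the same 4 libraries and without EVX1 KO replicate 2 (up to 0.160). Bcl7b gave -0.68 ± 0.14 and lost its call without WT replicate 2 (limma adjusted p = 0.0673). Against Evx1as KO, the EVX1 KO values of Wbscr27 (-0.92), Abhd11 (-0.53) and Mlxipl (-0.86) were called lower and Bcl7b (0.41) higher. Of these 4, Mlxipl kept its call in all 8 fits that left out 1 library, Wbscr27 and Abhd11 lost theirs in 4 (without replicate 1 or 3 of Evx1as KO, or 2 or 3 of EVX1 KO, limma adjusted p up to 0.121) and Bcl7b in 7, all but that without EVX1 KO replicate 1 (up to 0.158). With EVX1 KO replicate 1 as the lone EVX1 KO library, Mlxipl alone of the 4 was called, and it was not called without EVX1 KO replicates 1 and 2 (0.0615) or without Evx1as KO replicates 2 and 3 (0.0871).

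**Figure D4:**
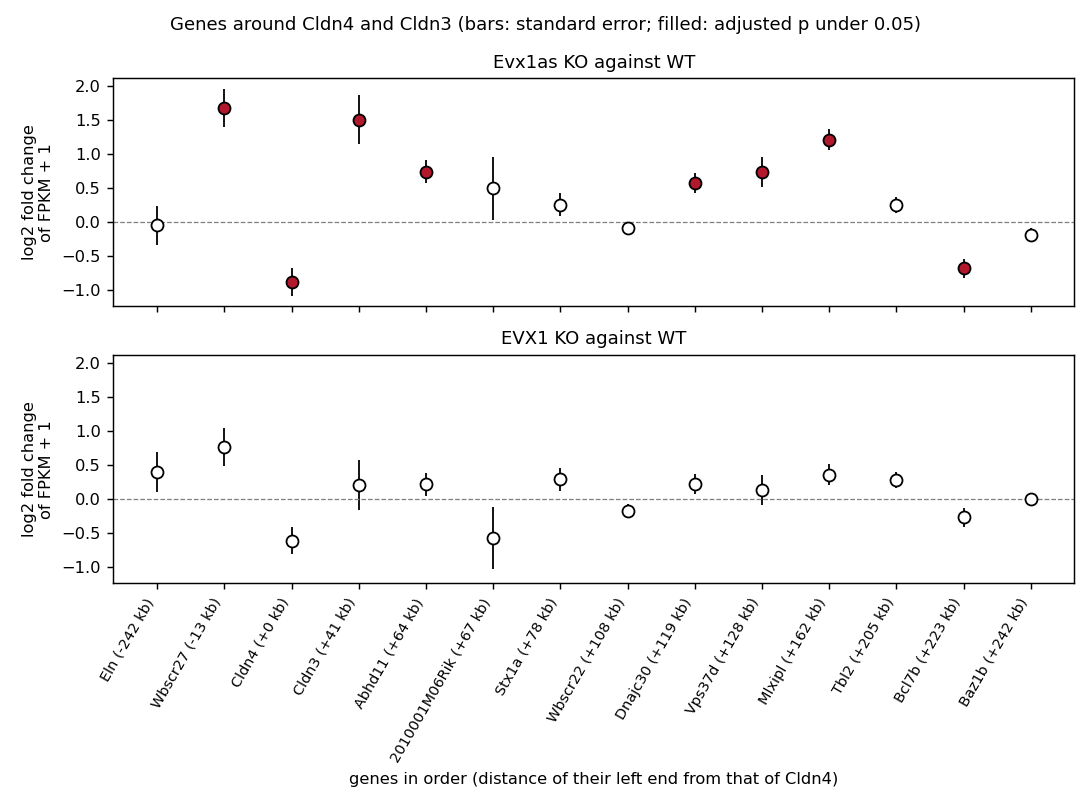
Log2 fold changes of FPKM + 1 for tested genes around Cldn4 and Cldn3, in chromosome order with distance from Cldn4 in kb, for Evx1as KO against WT (top) and EVX1 KO against WT (bottom). Points are limma estimates, lines are standard errors, and filled points have adjusted p under 0.05: in the top panel Cldn4 (-0.88) is low between Wbscr27 (1.69) and Cldn3 (1.51), and no point is filled in the bottom panel.

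Other genes of the junction, of adhesion and of splicing were read from 6 lists, the last of mesenchymal genes and repressors of epithelial genes. Over 100 tested genes of these lists, 7 rose and 25 fell in Evx1as KO against WT, beside 13.0% and 11.4% of all tested genes. Of the 25 that fell, 5 were in the mesenchymal list. Of 8 other strand genes, 2 fell and 6 were not called, with a list median of -0.09. F11r, the gene of junctional adhesion molecule A, had 57.5, 53.4 and 54.5 FPKM in Evx1as KO, against 123 and 104 FPKM in WT (-1.03 ± 0.11, limma adjusted p = 9.82e-04). Lsr, a protein gene of tricellular contacts, gave -0.73 ± 0.15 (lost without WT replicate 2, limma adjusted p = 0.0639).

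Among 21 plaque and polarity genes 2 rose and 3 fell, with a median of 0.07. These counts were near the 13.0% up and 11.4% down of all tested genes. Tjp3, which encodes the scaffold ZO-3, had 11.4, 9.40 and 13.5 FPKM in Evx1as KO, against 4.14 and 3.18 FPKM in WT (1.41 ± 0.30, limma adjusted p = 0.0114, and 0.0814 without WT replicate 2). Tjp3 rose while its relative Tjp1 was not called. The other 4 calls were small, and the last 3 of them were named after their values were seen: Cgn, encoding the plaque protein cingulin (-0.61 ± 0.16), Mpdz (0.32 ± 0.10), Prkci (-0.33 ± 0.10) and Amotl1 (-0.41 ± 0.10). Mpdz lost its call in all 8 fits that left out 1 library (limma adjusted p up to 0.186). Cgn and Amotl1 each lost theirs without either WT library and without Evx1as KO replicate 1 or 3 (up to 0.147 and 0.0927), and Prkci without any 1 Evx1as KO library, and without replicate 2 of EVX1 KO or of WT (up to 0.225).

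The adhesion and Grhl2 pathway list moved most among the epithelial lists: 12 of its 24 tested genes fell, 2 rose and the median was -0.30. Over all tested genes 11.4% fell and 13.0% rose. The keratin genes Krt8 (-1.30 ± 0.20) and Krt18 (-1.29 ± 0.19), whose products pair in simple epithelia, fell together, as did Grhl3 (-1.38 ± 0.24), a paralog of Grhl2. Krt8 had 485, 802 and 615 FPKM in Evx1as KO, against 1686 and 1385 FPKM in WT. Rab25, a small GTPase gene of epithelial membrane recycling, rose: it had 24.8, 24.0 and 32.8 FPKM in Evx1as KO, against 4.41 and 5.68 FPKM in WT (2.22 ± 0.18, limma adjusted p = 4.14e-04). The other riser was Epcam (0.41 ± 0.13, limma adjusted p = 0.0498), an adhesion molecule gene named after its value was seen, which lost its call without either WT library, without EVX1 KO replicate 2 and without Evx1as KO replicate 1 or 3 (up to 0.176).

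Of 18 genes whose transcripts the ESRP proteins are known to splice, 2 rose and 2 fell at the gene level, with a median of 0.06. These counts were near the 13.0% up and 11.4% down of all tested genes. Fgfr2, a receptor gene with epithelial and mesenchymal splice forms, rose (0.97 ± 0.22, and limma adjusted p = 0.0522 without Evx1as KO replicate 3 and 0.102 without WT replicate 1), as did Macf1 (0.62 ± 0.11). Enah, which encodes the actin regulator Mena, fell (-0.86 ± 0.11, limma adjusted p = 0.00180), as did Tcf7l2 (-0.51 ± 0.12, lost without Evx1as KO replicate 3 or WT replicate 2, up to 0.103). Among 20 other splicing regulators (median -0.05), a smaller share was called than over all tested genes. Ptbp2 (0.53 ± 0.14) rose and Rbm47 (-0.66 ± 0.19) fell. Neither was stable: Ptbp2 lost its call without Evx1as KO replicate 1 or 3 or WT replicate 1 (limma adjusted p up to 0.164) and Rbm47 without either WT library, without EVX1 KO replicate 2 and without Evx1as KO replicate 1 or 3 (up to 0.221). Of 9 mesenchymal genes and repressors of epithelial genes, 5 fell and none rose (limma), with a median of -1.57. They were Cdh2 (-2.73 ± 0.33), Cdh11 (-2.57 ± 0.45), Snai1 (-2.54 ± 0.36), Vim (-1.62 ± 0.28) and, named after its value was seen, Fn1 (-1.57 ± 0.24). Macf1 and Cdh11, called in every fit that left out 1 library, were not called without Evx1as KO replicates 2 and 3 (limma adjusted p = 0.0557 and 0.0631). The median over all tested genes was 0.02.

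**Figure D5:**
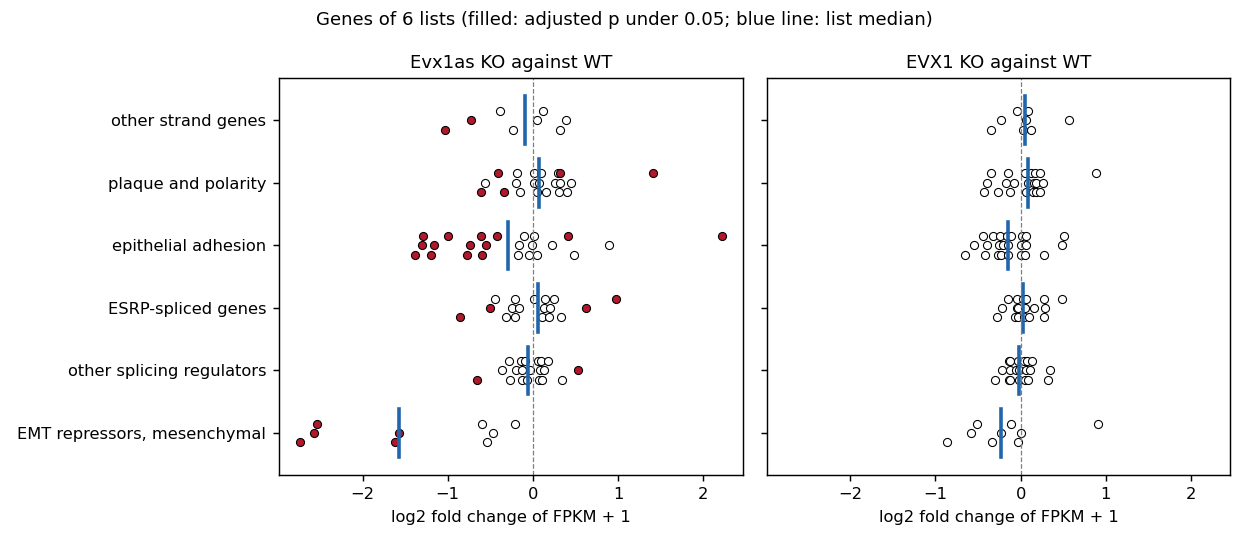
Log2 fold changes of FPKM + 1 for the 100 tested genes of 6 lists in Evx1as KO against WT (left) and EVX1 KO against WT (right), with points for genes, filled where adjusted p is under 0.05, and blue lines for list medians. The epithelial adhesion list (median -0.30) and the mesenchymal list (-1.57) lie furthest left in the left panel, and no point is filled in the right panel.

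None of the 100 was called by limma in EVX1 KO against WT, beside 1.24% of all 13188 tested genes. With library weights 6 were, beside 1148 of all tested genes. An unadjusted p under 0.05 was found for 17 of the 100, beside 2800 of all tested genes. The genes with the largest estimates in their lists were Cldn12 (0.57 ± 0.14), Tjp3 (0.88 ± 0.30), Krt18 (-0.65 ± 0.19), Uap1 (0.49 ± 0.14), Rbm24 (0.34 ± 0.19) and Twist2 (0.91 ± 0.30). List medians lay between -0.23 and 0.08. Twist2 was called without EVX1 KO replicate 3 (1.25, limma adjusted p = 0.0174) and Tjp3 without EVX1 KO replicates 2 and 3 (1.55, limma adjusted p = 0.0430).

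Between the knockouts 29 of the 100 were higher in EVX1 KO and 9 lower, beside 10.7% and 11.3% of all tested genes, and without EVX1 KO replicates 2 and 3 these counts were 12 and 7. Of the 29 higher with all libraries, 5 were in the mesenchymal list. In the adhesion list 12 of 24 were higher and 2 lower (median 0.26), led by Grhl3 (1.86 ± 0.22) and the epithelial transcription factor gene Elf3 (1.51 ± 0.12). Rab25 (-2.37 ± 0.16) and Cdh3 (-1.44 ± 0.27), the P-cadherin gene, were lower. Of the strand genes (median 0.32), F11r (0.99 ± 0.10) was higher and Marveld3 (-0.62 ± 0.12) lower, and both were called in every fit that left out 1 library. Marveld3 lies on chromosome 8 and was not called with chromosome medians removed (-0.27, limma adjusted p = 0.126). In the plaque list (median -0.02) Pard6a, a polarity gene, was lower (-0.87 ± 0.14). Cdh3 and Pard6a also lie on chromosome 8. With chromosome medians removed both were called (-1.08 and -0.52), and without EVX1 KO replicates 1 and 2, which stood low on it, neither was (Cdh3 -0.94, limma adjusted p = 0.134, and Pard6a -0.74, 0.0866).

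Of 18 genes spliced by ESRP proteins, 5 were higher and 3 lower (median -0.04), beside 10.7% and 11.3% of all tested genes. Enah (0.91 ± 0.10) and Ralgps2 (0.60 ± 0.10) were higher and Macf1 (-0.59 ± 0.10) lower. Of 20 other splicing regulators, 3 were higher and 2 lower (median -0.01), near those shares, and Rbm47 (0.98 ± 0.17) changed most. Of the mesenchymal list (median 1.12) Cdh11 (2.58 ± 0.40), Cdh2 (2.51 ± 0.29), Snai1 (2.43 ± 0.32) and Fn1 (1.55 ± 0.21) were higher. Of the genes named in this paragraph so far, Macf1 (limma adjusted p = 0.0807) and Rbm47 (0.0547) were not called without EVX1 KO replicates 2 and 3, Ralgps2 (0.104), Rbm47 (0.118) and Fn1 (0.0533) without EVX1 KO replicates 1 and 2, and Ralgps2 (0.0818), Macf1 (0.0679) and Cdh11 (0.0679) without Evx1as KO replicates 2 and 3. Calls of further genes among the 4 largest of their lists could be ended by 1 left-out library, with limma adjusted p up to 0.126. They were those of Cxadr (0.50, without replicate 3 of Evx1as KO or 2 of EVX1 KO), Mpp5 (0.47, without any Evx1as KO library or replicate 1 or 2 of EVX1 KO) and Cldn12 (0.45, without any library of either knockout). Rbm24 (0.70) lost its call without replicate 1 of Evx1as KO, or 1 or 2 of EVX1 KO, and Ptbp2 (-0.54) without Evx1as KO replicate 1 or 3. Fgfr2 (-0.70) lost its call without replicate 1 or 3 of Evx1as KO, or 2 or 3 of EVX1 KO, and Nova2 (-0.56) without replicate 1 or 3 of Evx1as KO or any EVX1 KO library. Without EVX1 KO replicates 2 and 3 none of these 7 was called (limma adjusted p from 0.0842 to 0.308).

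Markers of other cell types moved with these differences, and their part in them was not tested. Summed FPKM of 10 undifferentiated stem cell markers was 926 to 1114 in Evx1as KO, 714 to 725 in EVX1 KO and 545 to 666 in WT, and 4 of 9 tested rose and 1 fell in Evx1as KO against WT. Pou5f1, the largest part of that sum, Nanog, Sox2 and Utf1 rose. Klf4 fell (mean 1.39 FPKM in Evx1as KO and 3.94 FPKM in WT). Esrrb (1.57 and 2.05 FPKM) and Zfp42 (10.7 and 14.9 FPKM) were lower in mean and not called. For 9 streak and mesoderm markers it was 43.8 to 138 in Evx1as KO, 339 to 361 in EVX1 KO and 358 to 382 in WT, and 8 of the 9 fell in Evx1as KO against WT. Markers of epithelial lineages moved too. The sum over 8 surface ectoderm markers was 479 to 634 in Evx1as KO, 785 to 893 in EVX1 KO and 751 to 918 in WT, with Krt5 under 0.1 FPKM in every library and 3 of 5 tested lower in Evx1as KO against WT. Most of that sum was Sfn, at 421 to 571 FPKM in Evx1as KO, 723 to 798 FPKM in EVX1 KO and 617 to 773 FPKM in WT. Over 10 trophoblast markers the sum was 30.6 to 72.7 in Evx1as KO, 84.7 to 111 in EVX1 KO and 120 to 154 in WT, with Elf5 and Tpbpa under 0.1 FPKM in every library and 5 of 8 tested lower in Evx1as KO against WT. Over 12 extraembryonic endoderm markers the sum was 246 to 269 in Evx1as KO, 404 to 421 in EVX1 KO and 439 to 449 in WT, with Afp under 0.1 FPKM in every library, 6 of the 12 never at 1 FPKM and 4 of 6 tested lower in Evx1as KO against WT. Most of that sum was Sparc, at 234 to 261 FPKM in Evx1as KO, 359 to 363 FPKM in EVX1 KO and 411 to 414 FPKM in WT. The 8 definitive endoderm markers summed to 25.6 to 65.2 in Evx1as KO, 85.5 to 137 in EVX1 KO and 37.3 to 47.4 in WT, and 9 fibroblast markers to 36.6 to 51.0, 53.0 to 97.9 and 137 to 228 in the same 3 groups. Most of the Evx1as KO definitive endoderm sum was Trh, at 20.2, 45.0 and 22.0 FPKM, against 9.47 and 8.14 FPKM in WT. Trh was not called between them, whereas Cxcr4 and Gsc were called lower in Evx1as KO. Most of the WT fibroblast sum was Acta2, at 115 and 189 FPKM, against 17.1, 33.1 and 26.4 FPKM in Evx1as KO. In Evx1as KO against WT, 2 of 7 tested definitive endoderm markers and 2 of 6 tested fibroblast markers fell. Beside these and the marker counts above, 13.0% of all tested genes rose and 11.4% fell in that comparison. In EVX1 KO against WT, Msgn1 and Perp were called lower and Cer1 higher, and no other marker was called, beside 1.24% of all tested genes.

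Genes with the most similar pattern were sought among 7798 named genes that averaged 5 FPKM or more, by Pearson r of log2(FPKM + 1) over the 8 libraries, which share their groups and scaling. The best of so many genes over 8 values can have high coefficients through the search alone, and no reference value was computed. Cldn3 was most like Ncaph2 (r = 0.986) and Slc25a23 (0.986), and Cldn4 most like Rnf14 (0.977) and Osbpl5 (0.968). Cldn6 went with Timm10 (0.976) and Arpc3 (0.976), and Cldn7 with Pvr (0.978) and Acadvl (0.974). For Ocln they were Mapk9 (0.942) and Rnf208 (0.932), the lowest coefficients of the set, and for Tjp1 Pla2g7 (0.991) and Mum1 (0.984). Esrp1 was closest to Oip5 (0.981) and Spast (0.971), Esrp2 to Cacul1 (0.987) and Wnt4 (0.984), and Grhl2 to Ears2 (0.975) and Itpr1 (0.957). Between members, r of the same 8 values was -0.94 for Cldn3 with Esrp2, 0.86 for Cldn7 with Esrp2 and -0.85 for Cldn4 with Esrp1. Grhl2 and Ocln stayed between -0.35 and 0.46 with every other member.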

How the data were processed

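RNA was sequenced from 8 libraries with a TruSeq Stranded kit, per the labels' protocols. The FPKM values were made by the authors and deposited as 1 table of gene lines. The submitters' processing notes name CASAVA, TopHat2 2.0.11 and the builds mm10 and mm9 with no role. Neither the FPKM program nor the annotation nor the strand of counting is given in the sources used here, and the coordinates in the table are not those of GRCm38. Of 45772 lines, 3527 were blank, and 2660 symbols stood on several lines with identical values, so isoforms were not analysed.

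From log2(FPKM + 1), genes that reached 1 FPKM in 2 libraries or more were fitted with limma 3.58.1 (R 4.3.3), with all 8 libraries, a mean trend and moderated variances. Benjamini-Hochberg adjusted p under 0.05 over all 13188 tested genes was a call. Ratios were compared by exact two-sided permutation. The code was tested on simulated data. Absolute depth is unknown, so no counting interval is given, and the number of libraries limits precision. The 9 members, the gene lists and the tests were chosen with earlier results of these data known. From each list, up to 4 tested genes with the largest change could be named, and exceptions are stated. The alternatives were other pseudocounts, filters, scalings, library weights, a replicate block, fits without 1 or 2 libraries and removal of chromosome medians. Chromosome medians and fits without 2 libraries were added after the data were seen. Same-numbered libraries correlated between -0.174 and 0.109, so the numbers were not taken as pairs.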

Additional observations from a re-analysis of the deposited data

How the results depend on the processing

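Esrp2 in Evx1as KO against WT was called in all 21 alternatives. Counts of called genes below are for the 9 members, the 100 list genes and all tested genes. In Evx1as KO against WT (4, 32 and 3230), they ranged over 2 to 4, 21 to 37 and 1421 to 3414 when 1 library was left out, members numbered 2 with no filter, and without Evx1as KO replicates 2 and 3 there were 1 member and 1208 genes. The ranges in EVX1 KO against WT (0, 0 and 164) were 0 to 0, 0 to 2 and 4 to 634. Library weights gave 2, 6 and 1148, no filter 28 genes, a fit of these 2 groups only 27, without Evx1as KO replicates 2 and 3 27, without EVX1 KO replicates 1 and 2 8, and without EVX1 KO replicates 2 and 3 1 list gene. The ranges in EVX1 KO against Evx1as KO (3, 38 and 2903) were 1 to 3, 22 to 42 and 1409 to 2666. No filter left 1 member and library weights gave 5552 genes. Without Evx1as KO replicates 2 and 3 there were 0, 18 and 785, without EVX1 KO replicates 1 and 2 11 list genes and 729 genes, and without EVX1 KO replicates 2 and 3 0, 19 and 1054. The causes were not tested.

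Changes of sign were all in member differences that were not called. In Evx1as KO against WT they were Ocln (-0.041 with library sums, -0.17 to 0.23 leaving out 1 library), Tjp1 (-0.25 to 0.18) and Grhl2 (0.06 with the replicate block, 0.0026 without Evx1as KO replicates 2 and 3, -0.096 to 0.091). Those in EVX1 KO against WT were Ocln (-0.043 with library weights, -0.12 to 0.28), Cldn3 (-0.38 without EVX1 KO replicates 1 and 2, -0.20 to 0.61), Esrp1 (-0.11 to 0.22), Grhl2 (-0.019 without EVX1 KO replicates 1 and 2) and Esrp2 (0.020 with chromosome medians removed). Those in EVX1 KO against Evx1as KO were Cldn6 (0.050 with library sums, 0.042 with library weights, -0.12 to 0.01), Ocln (-0.088 with library weights, -0.21 without Evx1as KO replicates 2 and 3, -0.051 to 0.17) and Grhl2 (-0.017 without EVX1 KO replicates 1 and 2).

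With a replicate block the members called were 4, 0 and 3 in the same order of comparisons, and in EVX1 KO against WT 28 genes were called. Scaling to library sums moved the median gene of EVX1 KO against Evx1as KO to 0.10, beside -0.00, and the split of calls to 2156 higher and 1014 lower, beside 1412 and 1491. In Evx1as KO against WT that split was 1342 higher and 1960 lower, beside 1721 and 1509, and in EVX1 KO against WT 112 and 59, beside 91 and 73. Members called were then 5, 0 and 4, the additions being Cldn6 in Evx1as KO against WT (-0.32, limma adjusted p = 0.0442) and Cldn7 in EVX1 KO against Evx1as KO (limma adjusted p = 0.0158).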
